A study of Mus musculus with 2 samples.

Results

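The genes described are 37 mouse genes of lipogenesis and lipid droplets, out of 32285 genes in the count tables. They were taken by symbol from a fixed list, and all 37 were found in both tables. Their transcripts were counted by single-cell RNA sequencing in tumours of the liver. One library came from Crtc2-/- mice, which lack the CREB coactivator Crtc2, and the other from Crtc2+/+ mice. Mice of both genotypes received 25 mg/kg of the liver carcinogen diethylnitrosamine (DEN) by intraperitoneal injection at 2 weeks of age and ate a NASH diet, which induces fatty liver disease, from week 8 to week 26. Each genotype has 1 library, so no difference below has a replicate check, no test was run, and every interval covers counting error only. How many animals or tumours went into each library is not stated in the labels, nor whether the deletion was limited to a cell type.

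Lipogenesis turns citrate into fatty acids through ATP citrate lyase (Acly), acetyl-CoA carboxylase (Acaca, Acacb) and fatty acid synthase (Fasn), under the transcription factors SREBP-1 (Srebf1) and ChREBP (Mlxipl). Elongases and desaturases then lengthen the chains and add double bonds, and acyltransferases build triglyceride, which is stored in droplets coated by perilipins and CIDE proteins. In liver these droplets grow in steatosis, and adipose triglyceride lipase (Pnpla2) starts their breakdown, held back by G0s2 and Hilpda. Crtc2 is a coactivator of CREB in the fasting response of the liver, and Lpin1, a phosphatidate phosphatase, has been described as one of its targets in mouse liver.

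Cells were grouped by gates on unique molecular identifiers (UMIs, 1 per captured transcript). A hepatocyte gate of at least 20 UMIs of Alb, Apoa1 and Ttr was split into keratin-high cells with at least 4 UMIs of Krt8 and Krt18 and keratin-low cells. Endothelial cells had at least 3 UMIs of Ptprb and Stab2. Macrophages had at least 20 UMIs of the C1q genes and were split at 3 UMIs of Cd5l, Vsig4 and Clec4f into Kupffer-marked and other macrophages. A Sox5 gate took cells with at least 2 Sox5 UMIs, a neutrophil gate cells with at least 20 UMIs of S100a8 and S100a9, and a T gate cells with at least 2 UMIs of Cd3d, Cd3e and Cd3g. A cell could pass more than 1 gate. In order, these gates held 160, 79, 677, 537, 1125, 1166, 310 and 2608 cells of the Crtc2-/- library, against 182, 88, 233, 41, 4899, 267, 75 and 1926 cells of the Crtc2+/+ library. The Kupffer-marked gate had under 50 cells in the Crtc2+/+ library, so its levels are given without a count of differences, and 7 gates were compared.

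The Crtc2-/- library held 9242 barcodes and 78040008 UMIs, of which 8901 cells were kept, and the Crtc2+/+ library 9707 barcodes and 81487425 UMIs, of which 9349 cells were kept. The libraries shared 29 barcodes, 0.314% of the Crtc2-/- and 0.299% of the Crtc2+/+ barcodes. Crtc2 was counted 400 times in Crtc2-/- cells, at 5.43 UMIs per 1000000 UMIs (CPM, 4.91 to 5.99), and 615 times in Crtc2+/+ cells, at 7.96 CPM (7.34 to 8.61). The sources used here do not give the deleted part of the gene, so 3' counts of Crtc2 cannot check the labels. The endothelial, neutrophil and T gates each held their defining markers: all 7 endothelial markers summed to 5172 CPM in Crtc2-/- and 5362 CPM in Crtc2+/+ cells, all 6 neutrophil markers to 12287 and 9014 CPM, and all 6 T markers to 2930 and 2586 CPM. The Sox5 gate is called by its gene only, because 81.2% of its Crtc2-/- cells but 40.8% of its Crtc2+/+ cells had at least 5 UMIs of the myeloid genes Tyrobp and Fcer1g. Adipocyte markers were absent from the hepatocyte gates: all 5, Adipoq among them, had 0 UMIs there in both libraries.

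Levels are CPM of a gate, the UMIs of a gene set against all UMIs of the gate's cells. A gene counted as measured in a gate with at least 20 UMIs over both libraries. Of the 37 genes, 13 were measured in all 7 compared gates and 3 in none, the droplet coats Plin4 and Cidea and the lipase Pnpla3. The gate with the highest level was the same in both libraries for 18 genes. It was the keratin-high hepatocyte gate for 11 of them, among which were the fatty acid synthase gene Fasn, the malic enzyme gene Me1, the desaturase genes Fads1 and Fads2 and the droplet coats Plin3 and Plin5. The stearoyl-CoA desaturase gene Scd1 was highest in keratin-low hepatocytes, at 334 CPM in the Crtc2-/- and 265 CPM in the Crtc2+/+ library. Mgll, which cleaves monoglyceride, was highest in endothelial cells, and Dgat1, Pnpla2, G0s2 and Acsl1 were highest in neutrophils. The intervals of the highest gate and the next were apart in both libraries for 8 of the 18 genes. These were Fads2, Gpam and Me1 in keratin-high and Scd1 in keratin-low hepatocytes, Mgll in endothelial cells, and Dgat1, Pnpla2 and G0s2 in neutrophils. For the other genes, Fasn, Fads1, Plin3, Plin5 and Acsl1 among them, the intervals overlapped in at least 1 library.

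The place of the highest level differed between the libraries for other genes, with Plin2, Cd36 and Pparg as examples. Plin2, the perilipin that coats droplets in most cells, was highest in keratin-high hepatocytes of the Crtc2-/- library (726 CPM) but in Kupffer-marked macrophages of the Crtc2+/+ library (564 CPM). The fatty acid receptor gene Cd36 was highest in endothelial cells of the Crtc2-/- library (892 CPM) and in Kupffer-marked macrophages of the Crtc2+/+ library (603 CPM). Pparg, a nuclear receptor for fatty acids, was highest in Sox5 cells of the Crtc2-/- library (973 CPM) and in Kupffer-marked macrophages of the Crtc2+/+ library (259 CPM).

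**Figure D1:**
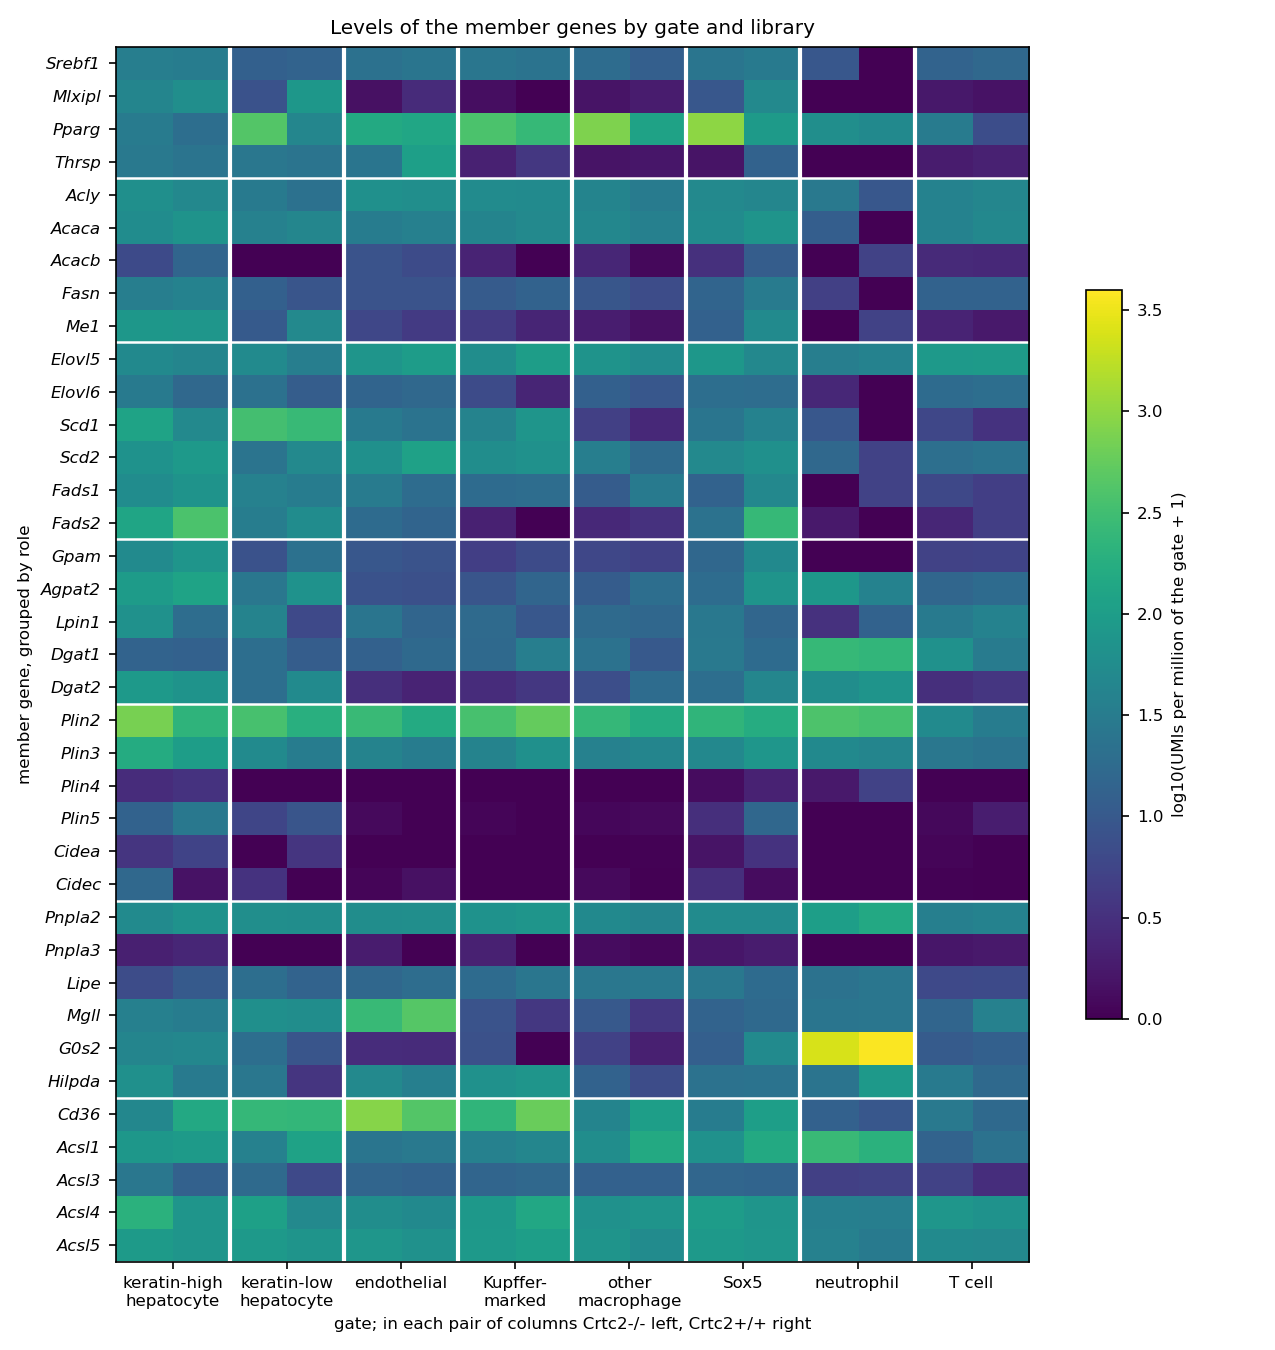
Levels of all 37 genes as log10 of CPM plus 1, for 8 gates with the Crtc2-/- library left and the Crtc2+/+ library right in each pair of columns; rows are grouped by role. G0s2 stands out in neutrophils at 2420.2 and 3759 CPM, Cd36 in endothelial cells at 892 and 430 CPM, and Pparg in Sox5 cells at 973 and 91.0 CPM.

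Differences between libraries are log2 ratios, Crtc2-/- over Crtc2+/+, after adding 10 CPM to each level, and a gene was past 2-fold with a log2 ratio of at least 1 or at most -1. Of the 37 genes, 20 were past 2-fold in at least 1 gate, 9 in 2 or more, and 14 were measured and within 2-fold in every gate. The 20 were 58.8% of the 34 genes measured in at least 1 gate, against 24.0% of all genes so measured. Of the 13 genes measured in all 7 gates, 7 (53.8%) were past 2-fold in at least 1, against 32.4% of all genes measured in all 7. The list was chosen with earlier results of these data known, so nothing is read from these shares. The median log2 ratio of the measured genes, set against that of all genes, was 0.08 against -0.08 in keratin-high hepatocytes, 0.08 against 0.16 in keratin-low hepatocytes, 0.09 against -0.03 in endothelial cells, 0.18 against 0.02 in other macrophages, 0.13 against 0.09 in neutrophils and -0.03 against 0.03 in T cells. It was furthest from that of all genes in the Sox5 gate, at -0.36 against -0.11. The genes past 2-fold are described gate by gate. Plin2 is annotated at chr4:86648386-86670060, Cd36 at chr5:17781690-17888801 and Fads2 at chr19:10062765-10101746, all on the minus strand, and Pparg at chr6:115360951-115490399 on the plus strand (GRCm38, GENCODE M21).

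**Figure D2:**
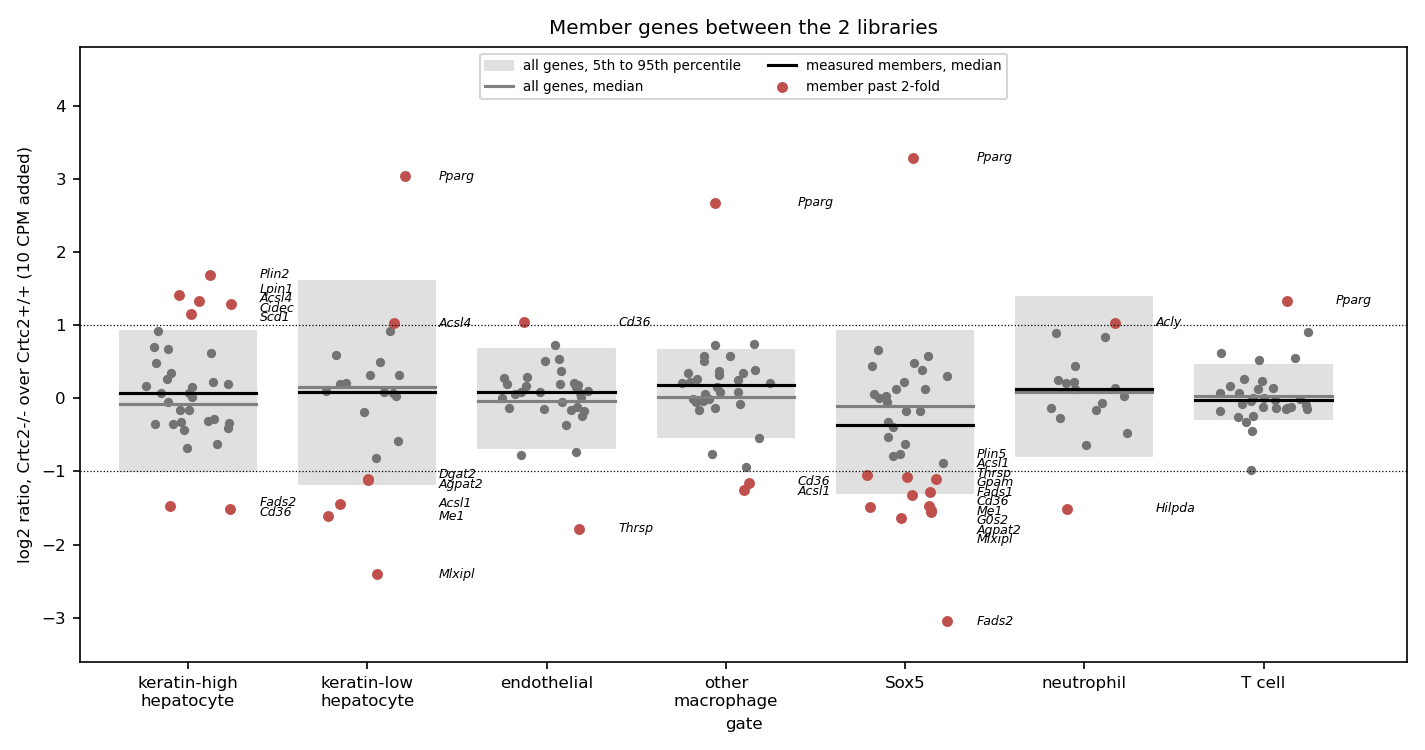
Log2 ratios (Crtc2-/- over Crtc2+/+, 10 CPM added) of the measured genes in 7 gates, 1 point a gene; grey boxes span the 5th to 95th percentile of all measured genes, lines give medians, and dotted lines mark 2-fold. Pparg lies at 3.28 in Sox5 cells, 3.03 in keratin-low hepatocytes and 2.67 in other macrophages, and Fads2 at -3.05 in Sox5 cells.

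Keratin-high hepatocytes of the Crtc2-/- library had more Plin2, Cidec, Lpin1, Scd1 and Acsl4 transcript and less Fads2 and Cd36. Of 34 measured genes, 5 were at least 2-fold higher and 2 at least 2-fold lower, where 4.37% of all genes of this gate were as far higher and 4.98% as far lower. Droplet coats had the highest median log2 ratio of the 7 roles, 0.98 over 4 measured genes, and fatty acid synthesis the lowest, -0.16 over 5. Among droplet coats, Plin2 had 1993 UMIs, 726 CPM (694 to 758), in Crtc2-/- cells and 457 UMIs, 219 CPM (199 to 240), in Crtc2+/+ cells. Its log2 ratio was 1.69, a ratio of 3.32 (3.0 to 3.68). The median cell stood at 528 CPM in the Crtc2-/- and 172 CPM in the Crtc2+/+ library, and 6 Crtc2-/- cells against 34 Crtc2+/+ cells had no Plin2 UMI. Cidec, a CIDE protein that fuses droplets, had 43 UMIs in Crtc2-/- cells and 1 in Crtc2+/+ cells, a ratio of 32.7 with a counting interval of 5.57 to 1322. The other 2 measured coats were within 2-fold with 10 CPM added, in opposite directions. Plin3, a coat of small droplets, was at 163.5 CPM in Crtc2-/- and 98.6 CPM in Crtc2+/+ cells. Plin5, a droplet coat of oxidative tissue, was at 12.7 CPM (8.88 to 17.7) in Crtc2-/- and 26.3 CPM (19.8 to 34.3) in Crtc2+/+ cells, a log2 ratio of -0.68. Without the added CPM the Plin5 ratio was 0.484 (0.308 to 0.753).

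Among genes of triglyceride synthesis, Lpin1 was at 65.2 CPM (56.0 to 75.4) in Crtc2-/- and 18.2 CPM (12.9 to 25.0) in Crtc2+/+ cells, a log2 ratio of 1.42. Agpat2, an acyltransferase for lysophosphatidate, was at 92.5 and 121 CPM in Crtc2-/- and Crtc2+/+ cells, and Dgat2, which makes triglyceride in hepatocytes, at 86.3 and 69.9 CPM. In the elongation and desaturation group the 2 genes past 2-fold went in opposite directions. Scd1, which makes monounsaturated fatty acids, was at 122 CPM (109 to 136) in Crtc2-/- and 49.3 CPM (40.2 to 59.8) in Crtc2+/+ cells, a log2 ratio of 1.15, with 40% of its Crtc2-/- and 32% of its Crtc2+/+ UMIs in 5 cells of each library. Fads2, the first desaturase of polyunsaturated fatty acids, was at 129 CPM (116 to 143) in Crtc2-/- and 376 CPM (350.0 to 403) in Crtc2+/+ cells, a log2 ratio of -1.47.

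Genes of uptake and activation were split as well. Acsl4, which activates arachidonic acid, was at 199.5 CPM (183 to 217) in Crtc2-/- and 73.7 CPM (62.5 to 86.3) in Crtc2+/+ cells, a log2 ratio of 1.32. Cd36 was at 45.1 CPM (37.5 to 53.8) in Crtc2-/- and 148 CPM (132 to 165) in Crtc2+/+ cells, a log2 ratio of -1.52, and 26.9% of Crtc2-/- against 61.5% of Crtc2+/+ cells had a Cd36 UMI. The regulators and the fatty acid synthesis enzymes were within 2-fold with 10 CPM added. Acacb, at 5.46 CPM in Crtc2-/- and 13.9 CPM in Crtc2+/+ cells, had a log2 ratio of -0.63. Its ratio without the added CPM was 0.39 (0.196 to 0.758). Srebf1 was at 33.9 CPM in Crtc2-/- and 31.6 CPM in Crtc2+/+ cells, and Mlxipl at 42.2 and 59.3 CPM. Acaca was at 54.6 CPM in Crtc2-/- and 70.8 CPM in Crtc2+/+ cells, Me1 at 78.6 and 78.0 CPM, and Fasn at 33.1 and 38.3 CPM. Of the lipolysis group, Pnpla2 was at 51.3 CPM in Crtc2-/- and 67.5 CPM in Crtc2+/+ cells, and its inhibitor Hilpda at 64.1 and 29.2 CPM. Hilpda was just within 2-fold with 10 CPM added, at a log2 ratio of 0.92. Its ratio without the added CPM was 2.20 (1.63 to 2.99).

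**Figure D3:**
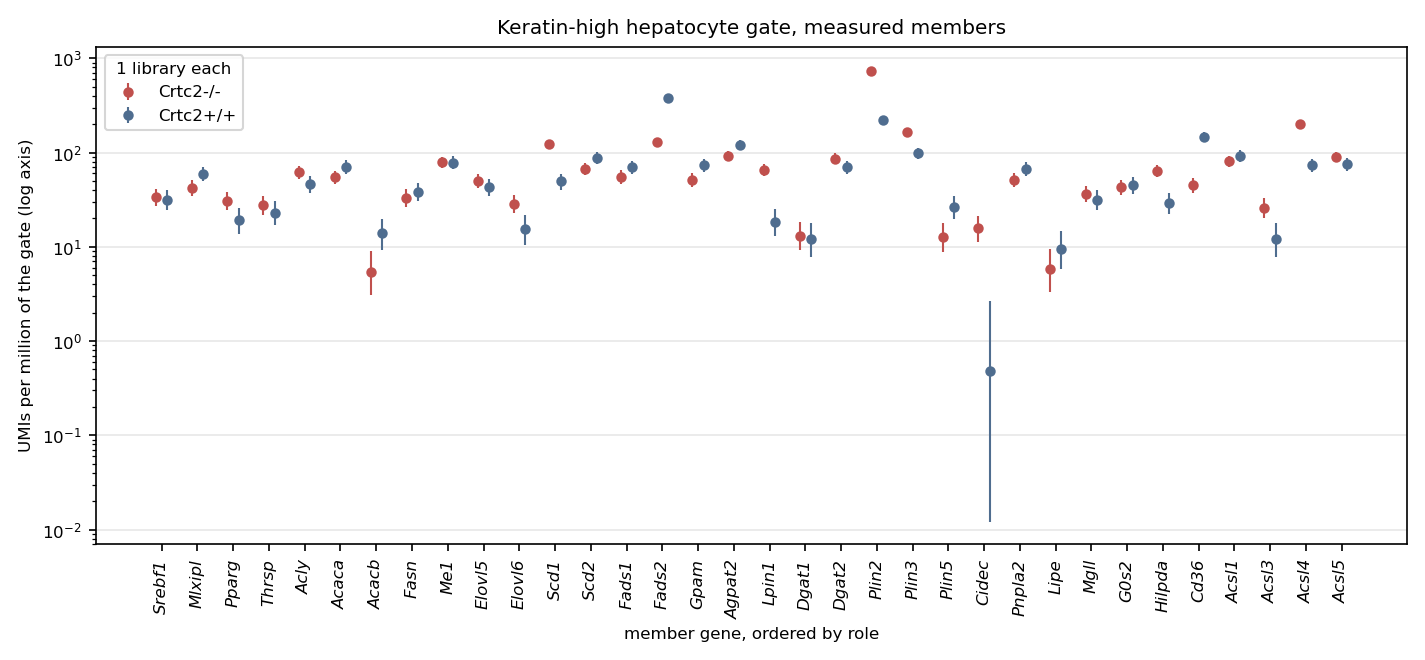
Levels of the 34 measured genes in keratin-high hepatocytes on a log axis, Crtc2-/- left and Crtc2+/+ right of each tick, with exact 95% Poisson intervals, genes ordered by role. Plin2, Lpin1, Scd1, Acsl4 and Cidec lie higher and Fads2 and Cd36 lower in the Crtc2-/- library, while Srebf1, Fasn and Me1 have overlapping intervals.

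Median depth differed, 15861 UMIs a cell in Crtc2-/- and 10246 in Crtc2+/+ keratin-high cells, so shares of cells were also taken at 1000 UMIs a cell, against T cells as cells that should lack hepatocyte transcripts. Plin2 was then detected in 53.8% of Crtc2-/- and 22.0% of Crtc2+/+ keratin-high cells, and in 3.22% and 2.81% of T cells. No keratin-high cell was too shallow for this, and 1 Crtc2-/- and 6 Crtc2+/+ T cells were. Fads2 was detected in 8.75% of Crtc2-/- and 23.6% of Crtc2+/+ keratin-high cells, against 0.156% of Crtc2+/+ T cells. Cd36 was detected in 2.50% of Crtc2-/- and 12.1% of Crtc2+/+ keratin-high cells, against 0.729% and 0.365% of T cells. Lpin1 was detected in 8.12% of Crtc2-/- and 0.549% of Crtc2+/+ keratin-high cells. For Lpin1 the T cells give no background, since they held Lpin1 themselves, at 29.1 and 38.8 CPM. Plin2 was likewise counted in T cells, at 51.1 CPM in Crtc2-/- and 31.5 CPM in Crtc2+/+. Whether that Plin2 was their own was not tested, so its T cell shares are no sure background either.

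Promoters are shown for Plin2, Acsl4 and Lpin1, the genes higher in these cells with the most UMIs among those that have an entry. They are the 250 bases before the start that RefSeq annotates (GRCm38.p6), 5' to 3' in the direction of the gene. Plin2 lies at chr4:86670060-86670309, Lpin1 at chr12:16610967-16611216 and Acsl4 at chrX:142390536-142390785, all on the minus strand. Capitals mark CCAAT or its reverse complement ATTGG, and TGACG, the core of the CREB element, or CGTCA.
Plin2: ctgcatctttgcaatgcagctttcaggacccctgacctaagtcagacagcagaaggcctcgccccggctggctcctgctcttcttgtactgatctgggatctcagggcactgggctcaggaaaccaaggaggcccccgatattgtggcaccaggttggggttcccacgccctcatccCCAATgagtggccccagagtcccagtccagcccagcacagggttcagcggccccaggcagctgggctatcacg
Lpin1: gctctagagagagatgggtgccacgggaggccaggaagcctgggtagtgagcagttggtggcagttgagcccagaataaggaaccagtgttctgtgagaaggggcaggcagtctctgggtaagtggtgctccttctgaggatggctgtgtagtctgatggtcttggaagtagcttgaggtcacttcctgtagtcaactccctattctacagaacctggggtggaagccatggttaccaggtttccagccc
Acsl4: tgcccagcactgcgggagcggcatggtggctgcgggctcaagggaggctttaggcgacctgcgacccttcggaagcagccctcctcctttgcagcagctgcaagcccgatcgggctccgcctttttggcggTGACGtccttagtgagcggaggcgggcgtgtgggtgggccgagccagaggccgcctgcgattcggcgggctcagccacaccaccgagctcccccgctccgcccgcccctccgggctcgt
Cidec, on 43 and 1 UMIs, is not shown. The Plin2 window holds CCAAT, the Acsl4 window TGACG, and the Lpin1 window holds neither on either strand. Promoter entries were found for 31 of the 37 genes, 44 windows in all, and not for Fads1, Scd1, Scd2, Dgat1, Dgat2 and Cidea. The full CREB element TGACGTCA was in 1 of these windows (2.27%), that of Pnpla3, against 1.55% of all 32851 windows. TGACG on either strand was in 13.6% of the windows of the list and 17.8% of all windows. For the E-box CACGTG these shares were 9.09% and 6.02%, and for CCAAT 45.5% and 33.8%. For the sterol element TCACNCCAC they were 4.55% and 1.05%, the first being only 2 windows, of Acsl1 and Mlxipl. None of these shares was tested. A full CREB element also counts as TGACG.

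Other cell features of this gate differed with the genes. All 10 hepatocyte markers were higher in Crtc2-/- cells, summing to 22772 against 10056 CPM, with Hnf4a at 218 and 87.6 CPM and Cyp3a11 at 13.5 and 0 CPM. All 5 biliary markers were lower in Crtc2-/- cells, summing to 7159 against 36859 CPM, with Sox9 at 159 and 427 CPM and Krt19 at 15.3 and 104 CPM. Of the gate's cells, 86 in the Crtc2-/- and 99 in the Crtc2+/+ library also passed the Sox5 gate. The part of cell makeup in the differences was not tested beyond the following subsets, which were chosen after seeing the data.

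Plin2, Lpin1 and Cd36 were past 2-fold in the same direction in 3 subsets of keratin-high cells. In cells with fewer than 2 UMIs of the biliary genes Epcam, Sox9, Krt19 and Krt7 (97 Crtc2-/- and 79 Crtc2+/+ cells), Plin2 was at 862 CPM in Crtc2-/- and 275 CPM in Crtc2+/+ cells, and Cd36 at 54.0 and 193 CPM. Lpin1 had 72 UMIs in Crtc2-/- and 3 in Crtc2+/+ cells there, Cidec 28 and 0, out of 1407355 and 538094 UMIs of all genes. In cells with at least 2 such UMIs (63 and 103 cells), Plin2 was at 582 CPM in Crtc2-/- and 199 CPM in Crtc2+/+ cells, Lpin1 at 79.9 and 22.6 CPM, and Cd36 at 35.8 and 132 CPM. Fads2 depended on the subset. It was at 138 CPM in Crtc2-/- and 436 CPM in Crtc2+/+ cells with biliary markers, at 121 and 203 CPM in cells without them, and at 173 and 76.9 CPM, the opposite direction, in cells whose Alb, Apoa1 and Ttr made up at least 1% of UMIs (97 and 52 cells). In that last subset Plin2 was at 827 CPM in Crtc2-/- and 219 CPM in Crtc2+/+ cells, Cd36 at 31.7 and 414 CPM, and Hilpda had 143 UMIs in Crtc2-/- and 0 in Crtc2+/+ cells. That subset held 1606411 UMIs in Crtc2-/- and 337896 in Crtc2+/+ cells, with medians of 16101 and 3922 UMIs a cell. Scd1 was within 2-fold in these 3 subsets, and Acsl4 in the cells without biliary markers. Cidec had 15 UMIs in Crtc2-/- and 1 in Crtc2+/+ cells with biliary markers, a log2 ratio of 0.99 on fewer than 20 UMIs. In keratin-high cells with fewer than 5 UMIs of Tyrobp and Fcer1g, Scd1 was at 111 CPM in Crtc2-/- and 50.4 CPM in Crtc2+/+ cells, just within 2-fold.

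**Figure D4:**
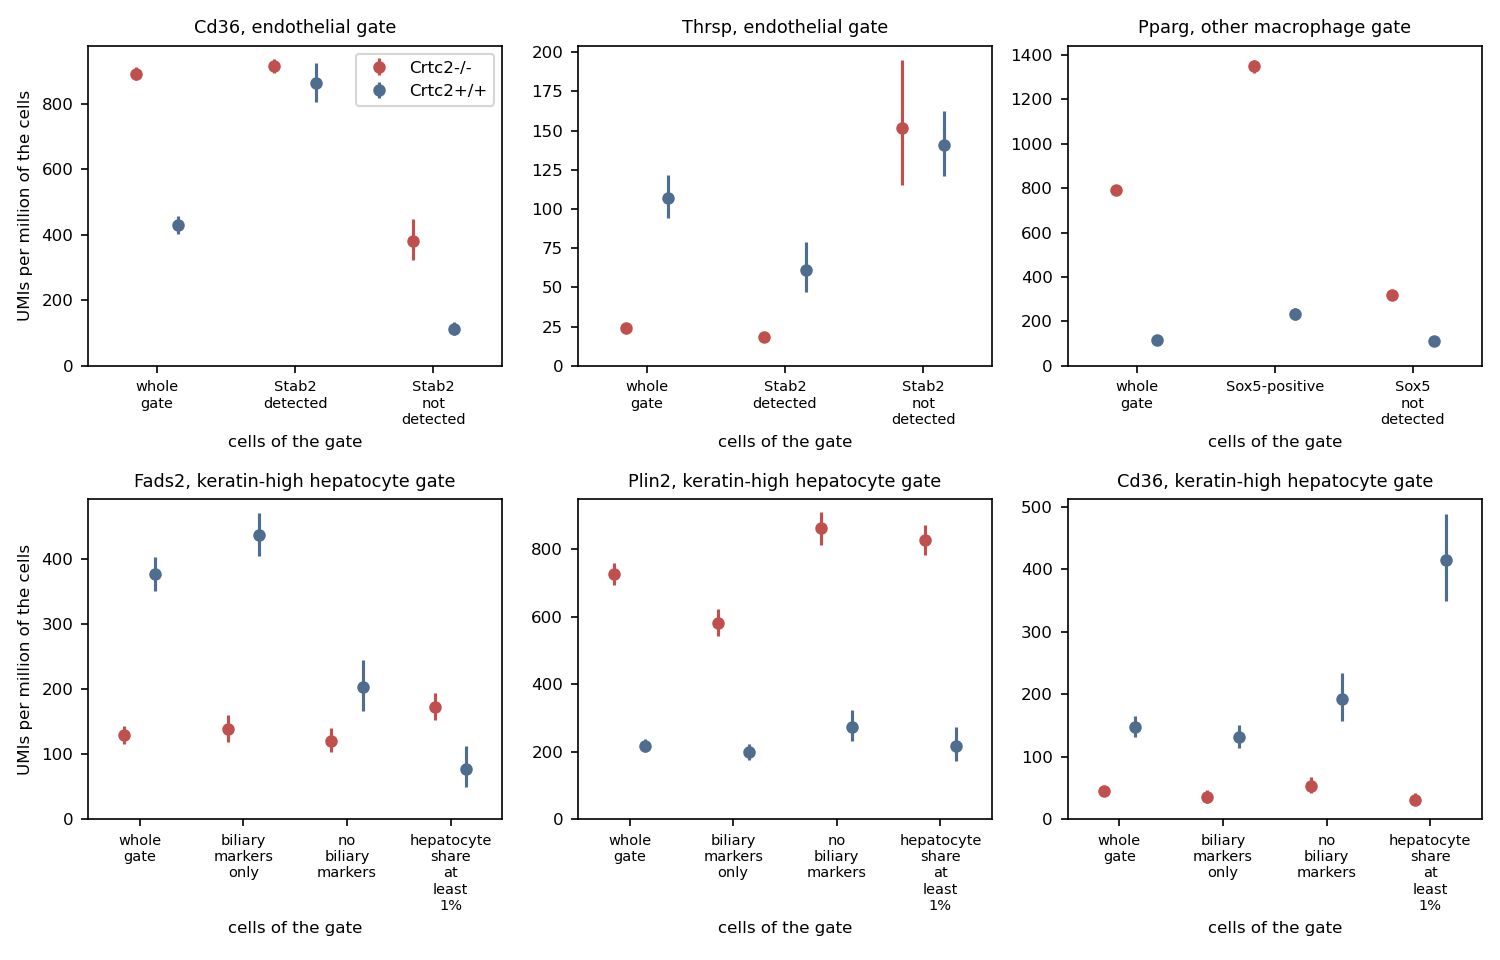
Levels in CPM with exact 95% Poisson intervals, Crtc2-/- left and Crtc2+/+ right of each tick, for whole gates and subsets of their cells. Plin2 in keratin-high hepatocytes is higher in Crtc2-/- cells in every subset, Fads2 changes direction, endothelial Cd36 is at 916 and 863 CPM where Stab2 is detected, and Pparg in other macrophages is higher in Crtc2-/- cells with and without Sox5.

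Keratin-low hepatocytes of the Crtc2-/- library had more Pparg and Acsl4 and less Mlxipl, Me1, Agpat2, Dgat2 and Acsl1, on low counts. Of 21 measured genes, 2 were at least 2-fold higher and 5 lower, where 12.2% of all genes were as far higher and 6.61% as far lower. Mlxipl was at 7.05 CPM in Crtc2-/- and 80.4 CPM in Crtc2+/+ cells, on 3 and 31 UMIs, 87.1% of the Crtc2+/+ UMIs coming from 5 cells. Me1 was at 9.40 CPM in Crtc2-/- and 49.3 CPM in Crtc2+/+ cells, Agpat2 at 25.9 and 67.5 CPM, Dgat2 at 18.8 and 51.9 CPM, and Acsl1, which activates long-chain fatty acids, at 37.6 and 119 CPM. Acsl4 was at 111 CPM in Crtc2-/- and 49.3 CPM in Crtc2+/+ cells, a log2 ratio of 1.02. It was within 2-fold with called doublets kept (0.96), with median-of-ratios scaling (0.87) and with a mitochondrial limit of 10% (0.48). Pparg was at 433 CPM in Crtc2-/- and 44.1 CPM in Crtc2+/+ cells, on 184 and 17 UMIs. Of these UMIs, 63.6% in Crtc2-/- and 76.5% in Crtc2+/+ came from 5 cells. Cells with at least 5 UMIs of Tyrobp and Fcer1g made up 24.1% of the Crtc2-/- and 17.0% of the Crtc2+/+ gate, and without them Pparg had 10 and 0 UMIs, and Acsl1 and Dgat2 were no longer past 2-fold. Markers of other cell types also differed in this gate. All 7 endothelial markers were higher in Crtc2-/- cells, summing to 1300.2 against 236 CPM, as were all 5 Kupffer markers, at 517 against 13 CPM. The 6 macrophage markers summed to 2342 CPM in Crtc2-/- and 6110.0 CPM in Crtc2+/+ cells, with 1 of 6 higher in Crtc2-/- cells. The part of these cells in the differences was not tested.

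The other leading genes of keratin-low hepatocytes were within 2-fold. Scd1 was at 334 CPM in Crtc2-/- and 265 CPM in Crtc2+/+ cells, Plin2 at 357 and 184 CPM, and Cd36 at 252 and 239 CPM, with 90.7% of its Crtc2-/- UMIs in 5 cells. Plin3 was at 51.7 CPM in Crtc2-/- and 31.1 CPM in Crtc2+/+ cells, Pnpla2 at 58.8 and 57.1 CPM, Mgll at 61.1 and 57.1 CPM, Fads2 at 32.9 and 54.5 CPM, and Acaca at 37.6 and 44.1 CPM. Where hepatocyte genes made up at least 1% of UMIs (53 Crtc2-/- and 69 Crtc2+/+ cells), Cd36 was lower, at 30.4 CPM in Crtc2-/- and 320.5 CPM in Crtc2+/+ cells on 4 and 46 UMIs, while Acsl1 had 8 UMIs in each library. Inside each library, keratin-high cells had less Scd1 than keratin-low cells, 122 against 334 CPM in Crtc2-/- and 49.3 against 265 CPM in Crtc2+/+. They had more Fads2, 129 against 32.9 CPM in Crtc2-/- and 376 against 54.5 CPM in Crtc2+/+, and more Plin3, 163.5 against 51.7 CPM and 98.6 against 31.1 CPM. The split is by a count of UMIs, and the keratin-low cells were shallower. Their median was 2965 UMIs in Crtc2-/- and 2013 in Crtc2+/+, against 15861 and 10246 in keratin-high cells. The part of depth and of other cell types in these contrasts was not tested.

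Endothelial cells of the Crtc2-/- library had more Cd36 and less Thrsp, and both differences depended on which endothelial cells were counted. Of 31 measured genes, 1 was at least 2-fold higher and 1 lower, where 2.3% of all genes were as far higher and 2.58% as far lower. Cd36 was at 892 CPM (873 to 912) in Crtc2-/- and 430 CPM (403 to 457) in Crtc2+/+ cells, a log2 ratio of 1.04. Thrsp, a regulator that raises lipogenic enzyme activity, was at 24.1 CPM (21 to 27.5) in Crtc2-/- and 107 CPM (94.3 to 121) in Crtc2+/+ cells, a log2 ratio of -1.78. Stab2, a receptor of sinusoidal endothelium, was detected in 633 of the 677 Crtc2-/- cells but in 100 of the 233 Crtc2+/+ cells. Another sinusoidal marker, Clec4g, was at 928 CPM in Crtc2-/- and 249 CPM in Crtc2+/+ cells, and Pecam1, common to endothelium, at 623 and 1128 CPM.

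Where Stab2 was detected, Cd36 was at 916 CPM in Crtc2-/- and 863 CPM in Crtc2+/+ cells, a ratio interval of 0.988 to 1.14. Where it was not (44 Crtc2-/- and 133 Crtc2+/+ cells), Cd36 was at 382 CPM in Crtc2-/- and 113 CPM in Crtc2+/+ cells. Thrsp was further apart in the cells with Stab2, at 18.3 CPM in Crtc2-/- and 61.4 CPM in Crtc2+/+ cells, than in those without it, at 151 and 141 CPM. Mgll was at 266 CPM in Crtc2-/- and 449 CPM in Crtc2+/+ cells of the whole gate, at 254 and 292 CPM with Stab2, and at 539 and 564 CPM without. In both libraries Thrsp and Mgll were thus higher, and Cd36 lower, in the cells without Stab2. Cells with myeloid transcripts made up 33.2% of the Crtc2-/- and 24.0% of the Crtc2+/+ gate, and without them Cd36 was at 1158 and 495 CPM and Thrsp at 38 and 117 CPM.

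The other endothelial values were within 2-fold. Plin2 was at 271 CPM in Crtc2-/- and 159 CPM in Crtc2+/+ cells, Scd2, a stearoyl-CoA desaturase of many tissues, at 62.8 and 114 CPM, and Elovl5, an elongase of polyunsaturated fatty acids, at 73.9 and 98.1 CPM. Pparg was at 152 CPM in Crtc2-/- and 132 CPM in Crtc2+/+ cells, Acly at 62.6 and 58.8 CPM, Acaca at 31.7 and 36.3 CPM, and Pnpla2 at 57.3 and 59.7 CPM. Acsl5, an acyl-CoA synthetase, was at 76.8 CPM in Crtc2-/- and 65.7 CPM in Crtc2+/+ cells, Plin3 at 40.05 and 31.1 CPM, Lpin1 at 23.9 and 13.8 CPM, and Dgat1 at 11.9 and 16 CPM.

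Other macrophages of the Crtc2-/- library had more Pparg and less Cd36 and Acsl1. Of 32 measured genes, 1 was at least 2-fold higher and 2 lower, where 2.59% of all genes were as far higher and 1.82% as far lower. Pparg was at 791 CPM (776 to 807) in Crtc2-/- and 116 CPM (113 to 119) in Crtc2+/+ cells, a log2 ratio of 2.67, and 88.4% and 45.5% of cells had a UMI. Cd36, which Pparg is known to induce in macrophages, was lower, at 41.3 CPM (37.9 to 45.0) in Crtc2-/- and 104.5 CPM (102 to 107) in Crtc2+/+ cells, a log2 ratio of -1.16. Acsl1 was at 58.1 CPM (54.0 to 62.4) in Crtc2-/- and 152 CPM (148 to 155) in Crtc2+/+ cells, a log2 ratio of -1.25. Sox5-positive cells made up 555 of the 1125 Crtc2-/- cells and 87 of the 4899 Crtc2+/+ cells.

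Pparg and Acsl1 differed in the same direction with and without Sox5. In Sox5-positive macrophages Pparg was at 1349 CPM in Crtc2-/- and 233 CPM in Crtc2+/+ cells, and Acsl1 at 65.5 and 308.5 CPM. In macrophages with no Sox5 UMI, 538 Crtc2-/- and 4759 Crtc2+/+ cells, Pparg was at 320.2 CPM in Crtc2-/- and 112 CPM in Crtc2+/+ cells, a log2 ratio of 1.44. Acsl1 was at 51.8 and 147 CPM there, and Cd36 at 52.9 and 105 CPM, a log2 ratio of -0.87. The macrophage marker list of 6 genes summed to 7159 CPM in Crtc2-/- and 11849 CPM in Crtc2+/+ cells of the whole gate, with 1 of 6 higher in Crtc2-/- cells. All 7 endothelial markers were higher in Crtc2-/- cells, summing to 360.3 against 58 CPM, as were 4 of 5 Kupffer markers, at 113 against 17.1 CPM, and 4 of 6 myeloid markers, at 10072 against 7386 CPM. The part of these markers' cells in the differences was not tested.

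Pparg has 3 promoter entries. The first window, at chr6:115360894-115361143, holds neither CCAAT nor TGACG on either strand. The second, at chr6:115362099-115362348, holds ATTGG at 1 place. The last holds CCAAT at 2 places. The 250 bases before that start, at chr6:115421816-115422065 on the plus strand of GRCm38.p6 (RefSeq), are shown because Pparg was past 2-fold in 4 gates, more than any other gene of the list in the higher direction, with CCAAT in capitals.
Pparg: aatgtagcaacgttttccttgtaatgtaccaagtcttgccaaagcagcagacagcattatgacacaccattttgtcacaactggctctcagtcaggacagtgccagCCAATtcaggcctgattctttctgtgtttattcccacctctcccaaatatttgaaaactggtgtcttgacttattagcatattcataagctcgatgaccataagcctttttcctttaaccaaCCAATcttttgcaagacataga
These counts come from the 3' end of transcripts and do not tell which start was used.

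The other leading genes of these macrophages were within 2-fold with 10 CPM added. Plin2 was at 253 CPM in Crtc2-/- and 166 CPM in Crtc2+/+ cells, Scd2 at 34.0 and 16.7 CPM, Elovl5 at 69.4 and 53.5 CPM, and Dgat1 at 21.6 and 8.98 CPM. Agpat2 was at 10.04 CPM in Crtc2-/- and 19.2 CPM in Crtc2+/+ cells, Plin3 at 37.2 and 42.7 CPM, and Pnpla2 at 49.7 and 41.7 CPM. Lipe, the hormone-sensitive lipase gene, was at 25.6 CPM in Crtc2-/- and 26.4 CPM in Crtc2+/+ cells, Acly at 41.1 and 30.4 CPM, Acaca at 45.9 and 36.5 CPM, and Srebf1 at 17.5 and 11.1 CPM.

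Kupffer-marked macrophages differed from other macrophages inside both libraries. They had more Cd36, 223 against 41.3 CPM in Crtc2-/- and 603 against 104.5 CPM in Crtc2+/+, more Scd1, 39.7 against 3.74 CPM and 73.8 against 1.61 CPM, and more Hilpda, 64.6 against 12.5 CPM and 75.2 against 5.78 CPM. Pparg differed in direction, at 381 against 791 CPM in Crtc2-/- and 259 against 116 CPM in Crtc2+/+. The Crtc2-/- contrast depended on Sox5. Crtc2-/- other macrophages with no Sox5 UMI had less Pparg than the Kupffer-marked cells, and Sox5-positive ones had more. Of the Kupffer-marked cells, 123 of 537 in Crtc2-/- and 8 of 41 in Crtc2+/+ also passed the endothelial gate, where Cd36 was high. This split too is by a count of UMIs, and the Kupffer-marked cells were deeper. Their median was 14240 UMIs in Crtc2-/- and 15548 in Crtc2+/+, against 10314 and 8890 in other macrophages. The part of depth and of shared cells in these contrasts was not tested. Between libraries, with 41 Crtc2+/+ cells, Plin2 was at 353 CPM in Crtc2-/- and 564 CPM in Crtc2+/+ cells on 3041 and 405 UMIs, 43.0% of the Crtc2+/+ UMIs coming from 5 cells. Cd36 was at 223 and 603 CPM on 1918 and 433 UMIs.

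The Sox5 gate had the most genes past 2-fold, and its libraries held different cells. Of 34 measured genes, 1 was at least 2-fold higher and 11 lower in Crtc2-/- cells, where 4.19% of all genes were as far higher and 8.59% as far lower. Pparg was at 973 CPM (956 to 991) in Crtc2-/- and 91.0 CPM (81.0 to 102) in Crtc2+/+ cells, a log2 ratio of 3.28. At 1000 UMIs a cell it was detected in 54.9% of Crtc2-/- and 7.49% of Crtc2+/+ cells. Fads2 was at 21.9 CPM in Crtc2-/- and 254 CPM in Crtc2+/+ cells, a log2 ratio of -3.05, and Fads1, the second desaturase of polyunsaturated fatty acids, at 12.6 and 46.6 CPM. The 11 lower genes came from all 7 roles of the list. Mlxipl was at 8.64 CPM in Crtc2-/- and 48.1 CPM in Crtc2+/+ cells, Thrsp at 0.571 and 12.7 CPM, and Me1 at 12.3 and 52.3 CPM. Gpam, the first acyltransferase of glycerolipid synthesis, was at 15.1 CPM in Crtc2-/- and 50.8 CPM in Crtc2+/+ cells, Agpat2 at 17.7 and 71.0 CPM, and Plin5 at 2.04 and 14.8 CPM. G0s2 was at 11.3 CPM in Crtc2-/- and 51.7 CPM in Crtc2+/+ cells, Cd36 at 31.0 and 104 CPM, and Acsl1 at 66.0 and 151 CPM.

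Keratin-high hepatocytes were 86 of the 1166 Crtc2-/- and 99 of the 267 Crtc2+/+ cells of the Sox5 gate. Biliary markers summed to 1554 CPM in Crtc2-/- and 23136 CPM in Crtc2+/+ cells, hepatocyte markers to 3537 and 4889 CPM, and myeloid markers to 9843 and 3213 CPM. RNA of hepatocytes, estimated from 8 abundant hepatocyte genes, amounted to 15.8% of the Crtc2-/- and 43.0% of the Crtc2+/+ UMIs of the gate. This share includes RNA of the gate's own hepatocytes. With this share subtracted, Acsl1, Cd36, Gpam, Plin5 and Thrsp were no longer past 2-fold. Where at least 5 UMIs of Tyrobp and Fcer1g were also required, 947 Crtc2-/- and 109 Crtc2+/+ cells were left, and the median log2 ratio of the measured genes was -0.11. Pparg was then at 1265 CPM in Crtc2-/- and 186 CPM in Crtc2+/+ cells, Fads2 at 7.46 and 90.9 CPM, Acsl1 at 67.3 and 261 CPM, and Cd36 at 28.5 and 123 CPM. Me1, Gpam, G0s2, Plin5 and Thrsp were no longer past 2-fold in these cells. Of the genes within 2-fold in the whole gate, Plin2 was at 223 CPM in Crtc2-/- and 168 CPM in Crtc2+/+ cells, Plin3 at 46.7 and 77.7 CPM, Elovl5 at 80.7 and 47.2 CPM, Acaca at 53.1 and 72.6 CPM, and Pnpla2 at 53.1 and 53.2 CPM.

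**Figure D5:**
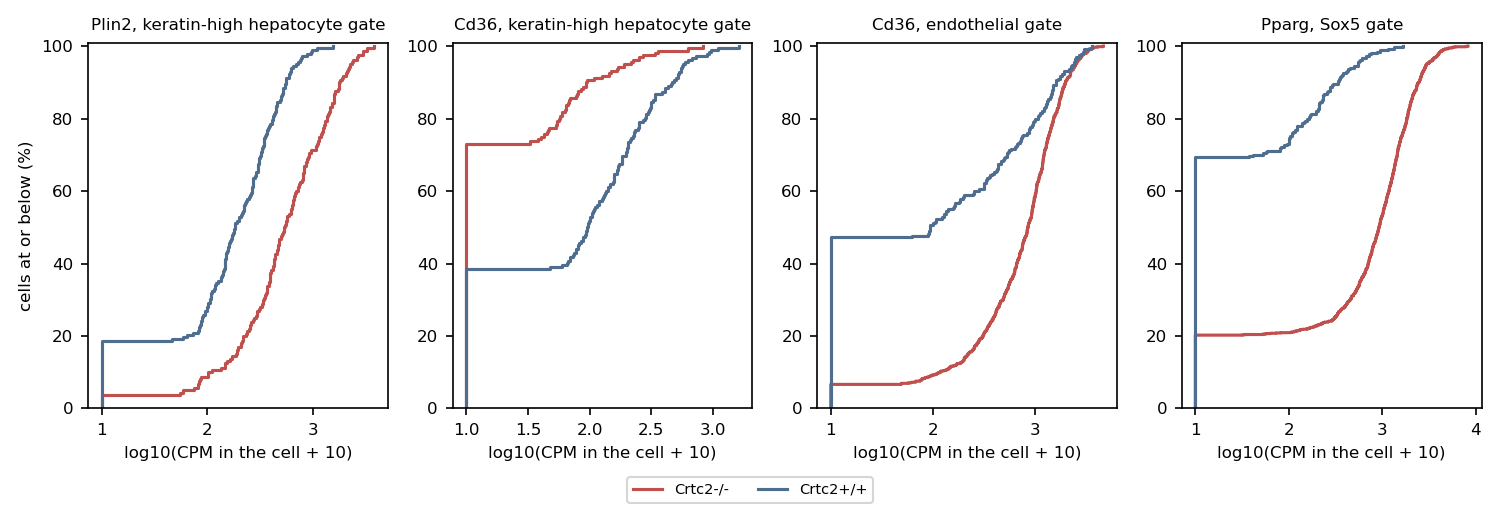
Share of cells at or below each level, on an axis of log10 of CPM in the cell plus 10, for Plin2 and Cd36 in 160 Crtc2-/- and 182 Crtc2+/+ keratin-high hepatocytes, Cd36 in 677 and 233 endothelial cells and Pparg in 1166 and 267 Sox5 cells. Cells with no UMI stand at the left edge: for Pparg 20.2% of Crtc2-/- and 69.3% of Crtc2+/+ cells, and for endothelial Cd36 6.65% and 47.2%.

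Per cell, Plin2 in keratin-high hepatocytes had quartiles of 278 and 1146 CPM in the Crtc2-/- library, against 79.2 and 340.1 CPM in the Crtc2+/+ library. Endothelial Cd36 had a median of 839 CPM in Crtc2-/- and 83.4 CPM in Crtc2+/+ cells, further apart than the levels of the gate, and its upper quartiles were 1338 and 724 CPM. For Pparg in the Sox5 gate the median cell stood at 911 CPM in the Crtc2-/- library and at 0 in the Crtc2+/+ library.

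Neutrophils of the 2 libraries were within 2-fold in G0s2, Pnpla2, Dgat1 and Acsl1, the genes that were highest there. G0s2, the inhibitor of adipose triglyceride lipase, had 3154 UMIs, 2420.2 CPM, in Crtc2-/- cells and 894 UMIs, 3759 CPM, in Crtc2+/+ cells, a log2 ratio of -0.63. Its lipase Pnpla2 was at 103 CPM in Crtc2-/- and 147 CPM in Crtc2+/+ cells, and Dgat1, which makes triglyceride in many tissues, at 253 and 231 CPM. Acsl1 was at 271 CPM in Crtc2-/- and 198 CPM in Crtc2+/+ cells, Plin2 at 386 and 349 CPM, Plin3 at 50.6 and 42.0 CPM, and Agpat2 at 79.0 and 37.8 CPM. Of 17 measured genes, 1 was at least 2-fold higher and 1 lower, where 10.3% of all genes were as far higher and 2.54% as far lower. Acly was the higher, on 36 UMIs in Crtc2-/- and 2 in Crtc2+/+ cells, a ratio of 3.29 with a counting interval of 0.846 to 28.2. Hilpda was the lower, on 30 and 20 UMIs, 23.0 and 84.1 CPM, with all of its Crtc2+/+ UMIs in 5 cells. Pparg was at 59.9 CPM in Crtc2-/- and 50.5 CPM in Crtc2+/+ cells. Elovl5 was at 33.8 and 37.8 CPM, Acsl5 at 36.8 and 29.4 CPM, and Scd2 had 20 UMIs in Crtc2-/- and 1 in Crtc2+/+ cells. The gate held 1303174 UMIs in Crtc2-/- and 237857 in Crtc2+/+ cells, so raw counts alone do not compare levels.

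T cells had 1 of 31 measured genes at least 2-fold higher and none lower, where 0.909% of all genes were as far higher and 0.44% as far lower. Pparg was at 30.5 CPM in Crtc2-/- and 6.08 CPM in Crtc2+/+ cells, a log2 ratio of 1.33, and had a UMI in 4.45% and 1.30% of cells. Without the 7.5% and 7.0% of cells that held at least 5 UMIs of Tyrobp and Fcer1g, Pparg was at 7.91 CPM in Crtc2-/- and 1.34 CPM in Crtc2+/+ cells, a log2 ratio of 0.66. Pparg was also within 2-fold in cells that passed the T gate alone (0.70) and by the mean of per-cell CPM (0.82). Dgat1 was at 65.5 CPM in Crtc2-/- and 30.3 CPM in Crtc2+/+ cells, with a log2 ratio of 0.91 in all T cells and in those without myeloid transcripts. Mgll was at 13.8 CPM in Crtc2-/- and 37.1 CPM in Crtc2+/+ cells, a log2 ratio of -0.98, and of -1.03 without those cells. The other leading genes differed less: Elovl5 was at 83.5 CPM in Crtc2-/- and 91.8 CPM in Crtc2+/+ cells, Acsl4 at 76.6 and 67.2 CPM, Acsl5 at 51.2 and 48.3 CPM, Acly at 39.1 and 43.8 CPM, and Acaca at 38.7 and 47.5 CPM. Plin2 was at 51.1 CPM in Crtc2-/- and 31.5 CPM in Crtc2+/+ cells, Plin3 at 25.9 and 22.8 CPM, Lpin1 at 29.1 and 38.8 CPM, Pnpla2 at 34.8 and 38.7 CPM, Scd2 at 19.4 and 22.5 CPM, and Srebf1 at 13.1 and 15.6 CPM.

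Read across gates, Pparg was past 2-fold higher in 4 gates and Acsl4 in the 2 hepatocyte gates, while Acsl1 was past 2-fold lower in 3 gates and Mlxipl, Thrsp, Me1, Fads2 and Agpat2 in 2 each. Cells shared between gates enter more than 1 of these counts, in particular the 555 Crtc2-/- cells common to the Sox5 and other macrophage gates. Without cells holding at least 5 UMIs of Tyrobp and Fcer1g, Pparg was within 2-fold in T cells and under 20 UMIs in keratin-low hepatocytes. Acsl4 in keratin-low hepatocytes was within 2-fold with called doublets kept, median-of-ratios scaling or a mitochondrial limit of 10%. Acsl1, Thrsp, Me1, Fads2 and Agpat2 each also lost a gate under another setting or subset. Cd36 was past 2-fold higher in endothelial cells and past 2-fold lower in keratin-high hepatocytes, other macrophages and Sox5 cells. The 14 genes that were measured and within 2-fold in every gate were Srebf1, Acaca, Acacb, Fasn, Elovl5, Elovl6, Scd2, Dgat1, Plin3, Pnpla2, Lipe, Mgll, Acsl3 and Acsl5. This holds with 10 CPM added. With 1 CPM added, 6 of the 14, Acacb, Fasn, Scd2, Dgat1, Mgll and Acsl3, were past 2-fold in at least 1 gate, and the other 8, Acaca and Srebf1 among them, were not.

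A further list of 61 genes of the pathway, not in the list of 37, held fatty acid binding proteins and Nr1h3, the nuclear receptor LXR alpha that induces lipogenic genes. The median log2 ratio of its measured genes was 0.20 in keratin-high and 0.11 in keratin-low hepatocytes, 0.06 in endothelial cells, 0.11 in other macrophages, -0.16 in the Sox5 gate, 0.07 in neutrophils and 0.09 in T cells. In keratin-high hepatocytes 8 of 54 measured genes were at least 2-fold higher and 5 lower in Crtc2-/- cells, where 4.37% of all genes of the gate were as far higher and 4.98% as far lower. Fabp1, the fatty acid binding protein of hepatocytes, was at 4718 CPM in Crtc2-/- and 95.2 CPM in Crtc2+/+ cells, Elovl2, an elongase, at 73.9 and 4.79 CPM, Fabp5 at 792 and 184 CPM, and the desaturase-like gene Fads3 at 11.7 and 91.4 CPM. In keratin-low hepatocytes 8 of 33 were higher and 4 lower (12.2% and 6.61% of all genes), with Fabp1 at 4192 CPM in Crtc2-/- and 521.5 CPM in Crtc2+/+ cells, Fabp4 at 2814 and 348 CPM, Fabp5 at 901 and 64.9 CPM, and Fitm1, an inducer of droplet formation, at 7.05 and 49.3 CPM.

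In endothelial cells 3 of 46 were higher and none lower (2.3% and 2.58% of all genes), with Fabp1 at 161 CPM in Crtc2-/- and 25.1 CPM in Crtc2+/+ cells, Nr1h3 at 114 and 30.7 CPM, and the lipoprotein lipase gene Lpl at 275 and 131 CPM. The lysosomal lipase gene Lipa was within 2-fold there, at 276 and 163 CPM. In other macrophages 4 of 48 were higher and 1 lower (2.59% and 1.82%), with Nr1h3 at 293 CPM in Crtc2-/- and 14.3 CPM in Crtc2+/+ cells, Fabp4 at 487 and 25.8 CPM, Fabp5 at 172 and 32.6 CPM, and Fabp1 at 39.7 and 2.89 CPM. In the Sox5 gate 5 of 54 were higher and 6 lower (4.19% and 8.59%), with Nr1h3 at 365 CPM in Crtc2-/- and 28.4 CPM in Crtc2+/+ cells, Fabp4 at 724 and 85.9 CPM, Fabp1 at 158.5 and 21.5 CPM, and Acsm3, a medium-chain acyl-CoA synthetase, at 3.59 and 70.4 CPM. In neutrophils 5 of 28 were higher and 1 lower (10.3% and 2.54%), on counts of 51 and 1 for Nr1h3, 91 and 4 for Fabp4, 24 and 0 for Hsd17b12 and 23 and 0 for Srebf2 in Crtc2-/- and Crtc2+/+ cells. These raw counts come from 1303174 UMIs of the Crtc2-/- gate and 237857 UMIs of the Crtc2+/+ gate. In T cells 2 of 49 were higher and none lower (0.909% and 0.44%). Fabp4 was at 114 CPM in Crtc2-/- and 49.3 CPM in Crtc2+/+ T cells, and Nr1h3 at 16.9 and 2.99 CPM. Lpl, at 32.7 and 13 CPM, and Fabp5, at 59.4 and 29.5 CPM, were within 2-fold with 10 CPM added. The estimated hepatocyte RNA was 2.28% of UMIs in Crtc2-/- and 1.5% in Crtc2+/+ endothelial cells, and its part in the Fabp1 values was not tested. In the endothelial gate all 6 macrophage markers were higher in Crtc2-/- cells, summing to 2717 against 1327 CPM. All 5 Kupffer markers were too, at 920 against 247 CPM. In T cells 4 of 6 macrophage markers were higher, summing to 805 against 921 CPM, and all 5 Kupffer markers, at 72.9 against 1.93 CPM. The part of such cells in the Nr1h3, Fabp4 and Lpl values was not tested.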

How the data were processed

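The deposited files hold UMI counts per gene and cell barcode, made by the authors with Cell Ranger 7.1.0, per the file headers. The mm10 build and Seurat, with no version, are named in the submitters' processing notes; the Chromium 3' v2 kit is named in the labels' protocols. Barcodes under 500 UMIs, under 250 detected genes or over 20% mitochondrial UMIs were removed, and so were doublets called by Scrublet (scanpy 1.11.5; 273 Crtc2-/- and 263 Crtc2+/+ barcodes). UMIs were then summed per gate and library. Levels are CPM of the gate with exact 95% Poisson intervals; ratios of counts have exact conditional 95% intervals; shares of cells at 1000 UMIs come from thinned counts. With 1 library per genotype no test was run; the ratio calculation was checked on simulated counts. The 37 genes, the list of 61 and the gates were chosen with earlier results of these data known. By rule, the text gives each measured gene past 2-fold, the 2 genes of each role with the highest CPM in a gate, and up to 4 of the 61 with the largest differences there. Of 32285 identifiers, 32158 were found in GENCODE M21. Alternatives covered the pseudocount, the count minimum, scaling, doublets, the mitochondrial limit, gate overlap and thresholds, and free RNA; subsets of the gates were added after seeing the data. Calculations used Python 3.11.15 with scipy 1.17.1.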

Additional observations from a re-analysis of the deposited data

Results flagged for a closer look

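Cd36 differed between the libraries in opposite directions in different gates. Its log2 ratio, Crtc2-/- over Crtc2+/+, was 1.04 in endothelial cells, and -1.52 in keratin-high hepatocytes, -1.16 in other macrophages and -1.48 in the Sox5 gate. The difference between gates was not tested, since each genotype has 1 library. Cd36 was within 2-fold in other macrophages with no Sox5 UMI, and in the Sox5 gate with the estimated hepatocyte RNA subtracted. The other macrophage and Sox5 gates shared 555 Crtc2-/- and 87 Crtc2+/+ cells. In endothelial cells with Stab2 the level was 916 CPM in Crtc2-/- and 863 CPM in Crtc2+/+ cells, and in those without it 382 and 113 CPM, while Stab2 was detected in 633 of 677 Crtc2-/- and 100 of 233 Crtc2+/+ cells.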

How the results depend on the processing

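No paired analysis was possible because each genotype has 1 library. Under 9 other settings, 49 log2 ratios of single genes were compared in each, not every measured gene of every gate. Of these 441 values, 350 stayed inside the counting interval of the reported value and 91 moved out of it. None past 2-fold changed sign. With 1 CPM added in place of 10, 8 genes were past 2-fold in other macrophages (3 reported), 4 in neutrophils (2) and 3 in T cells (1), and the median in other macrophages was 0.35 (0.18). In endothelial cells (2 reported) 1 gene was past 2-fold with the mean of per-cell CPM, with called doublets kept, with Stab2 detected and with Stab2 not detected; Cd36 was the one lost in the first 3 and Thrsp in the last, where its log2 ratio was 0.10. Median-of-ratios scaling gave 1 in neutrophils and 2 in T cells, and shifted all genes by -0.12 in keratin-high hepatocytes, 0.18 in keratin-low hepatocytes and -0.20 in the Sox5 gate on the log2 scale. A mitochondrial limit of 10% left 4 of 7 in keratin-low hepatocytes. T cells had 2 with doubled thresholds, with free RNA subtracted and with the myeloid limit. The Sox5 median of -0.36 was 0.0017 with the estimated hepatocyte RNA subtracted and -0.11 with the myeloid limit. In the Sox5 gate the RNA subtracted was not only free RNA. Of its cells, 86 in the Crtc2-/- and 99 in the Crtc2+/+ library were also keratin-high hepatocytes. With hepatocyte genes at 1% or more of UMIs, keratin-high hepatocytes had 11 past 2-fold (7 reported), with Fads2 at 1.07, and keratin-low hepatocytes 1 of 7 measured (7 of 21 reported); that gene was Cd36, not among the 7 reported, of which 5 fell under 20 UMIs (Acsl1 then at 0.11, Acsl4 at 0.85). Sox5-positive other macrophages had 8. The cause of these changes was not tested. Depth limits the keratin-low and neutrophil gates most, with 16 and 20 of the 37 genes under 20 UMIs.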
